A study of Mus musculus with 10 samples.

Results

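Of the 2192 regions called as enriched for H3K27me3 in mouse ESCs, 579 shared no base with any Ring1b, Cbx2 or Ezh2 peak called in the same cells. These 579 peaks were chosen by the positions of the called peaks alone, so their lack of Polycomb protein peaks is the definition of the group and not a result. They covered 0.826 Mb, against 4.08 Mb for the other 1613 H3K27me3 peaks. Of those 1613, 1581 overlapped a Ring1b peak, 959 an Ezh2 peak and 518 a Cbx2 peak.

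All ESC lists came from J1 ESCs, an established mouse line that was kept on mitomycin-C-treated feeder cells in serum with LIF. The NSCs were made from J1 ESCs by differentiation in culture and were expanded on gelatin with EGF and FGF. No knockout, transgene or drug treatment separates the groups, which differ in cell type, antibody and, for Ring1b, fixation and input. By the paper, cells for Ring1b were fixed with EGS, a longer cross-linker, before formaldehyde, a step the labels do not mention, and by the labels Ring1b had inputs of its own. The part of fixation and input in which peaks met a Ring1b peak was not tested. ChIP-seq was done for H3K27me3, Ring1b, Cbx2 and Ezh2 in ESCs and for H3K27me3 and Ring1b in NSCs, with 1 library for each. With 1 library per list there is no replicate spread, and no p-value is given. The ranges in parentheses after shares are 95% confidence ranges (exact, Clopper-Pearson), with peaks as the units, and they cover counting error only.

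Polycomb group (PcG) proteins keep developmental genes silent and act in a pair of complexes. In PRC2, Ezh2 is the enzyme that methylates lysine 27 of histone H3. In PRC1, Ring1b is the subunit that ubiquitylates histone H2A, and Cbx2 carries a chromodomain that binds H3K27me3. In ESCs PcG proteins are found mostly at CpG islands, the CpG-rich stretches around many gene starts, and many of their targets encode regulators of development.

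The labelled cell types were checked by the peaks at genes known for each. The pluripotency genes did not separate the cell types. Of 10 pluripotency genes, Sox2 alone had an ESC H3K27me3 peak within 1 kb of its start site, and no ESC Ring1b, Ezh2 or Cbx2 peak lay within that distance of any of the 10. In NSCs, too, Sox2 alone of the 10 had an H3K27me3 peak and 0 had a Ring1b peak. The neural genes did separate them. Of 11 neural stem cell genes with an annotated start site, 9 had an ESC H3K27me3 peak and 9 an ESC Ring1b peak. In NSCs 1 of those 11 genes, again Sox2, had an H3K27me3 peak, and 0 had a Ring1b peak. The ESC peak at Sox2 was among the 579.

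The sequences below are the most CpG-rich stretches of single peaks and do not show the make-up of whole peaks. In all peaks shown the CpG ratio, the number of CpGs against that expected, was higher in the stretch than in the peak. For the stretch labelled Espnl it was 0.808, against 0.51 for its peak. Each is the 300 bases of 1 peak that hold the most CpGs, outside annotated UTRs, on the forward strand of mm9 with every CpG in capitals. The first is from the peak with the highest CpG ratio, 295 bp from the start site of Peg10, a paternally expressed imprinted gene. The stretch lies in an intron of Peg10 at chr6:4698083-4698382 and holds 31 CpGs. Its commonest run of 9 bases, CGcttcatg, occurs 5 times.
Peg10: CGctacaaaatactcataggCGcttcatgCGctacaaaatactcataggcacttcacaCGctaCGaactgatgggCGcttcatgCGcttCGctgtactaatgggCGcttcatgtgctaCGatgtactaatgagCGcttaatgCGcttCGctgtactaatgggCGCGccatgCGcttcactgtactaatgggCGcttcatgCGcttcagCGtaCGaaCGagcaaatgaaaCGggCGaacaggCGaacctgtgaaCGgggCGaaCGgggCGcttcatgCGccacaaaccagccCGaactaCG
The next is from a peak in the middle of the ranking by CpG ratio. It lies at chr1:93241552-93241851, where it overlaps an exon of Espnl, in a peak 4793 bp from the start site of Klhl30, and holds 32 CpGs.
Espnl: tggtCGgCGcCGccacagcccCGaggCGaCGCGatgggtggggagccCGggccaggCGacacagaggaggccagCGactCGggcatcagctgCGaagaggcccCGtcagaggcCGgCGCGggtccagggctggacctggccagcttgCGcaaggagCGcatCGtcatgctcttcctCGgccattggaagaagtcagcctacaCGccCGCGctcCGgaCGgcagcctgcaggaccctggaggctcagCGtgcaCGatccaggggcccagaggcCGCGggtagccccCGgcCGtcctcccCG
The widest of the 579 peaks holds the start site of Lrg1 and reaches into Sema6b. Its stretch, at chr17:56264033-56264332, overlaps an exon of Sema6b and holds 35 CpGs.
Lrg1 and Sema6b: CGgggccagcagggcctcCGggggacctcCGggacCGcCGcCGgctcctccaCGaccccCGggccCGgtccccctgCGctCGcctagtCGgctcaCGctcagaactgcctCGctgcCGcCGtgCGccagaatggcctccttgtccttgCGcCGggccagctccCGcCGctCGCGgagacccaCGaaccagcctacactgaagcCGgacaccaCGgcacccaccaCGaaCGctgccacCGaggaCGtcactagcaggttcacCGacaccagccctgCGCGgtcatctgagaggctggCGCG
Among the peaks that also overlapped H3K27me3 and Ring1b peaks of NSCs, the 2000 bp peaks at Gpc5 and in an intergenic region were the widest. The Gpc5 stretch, at chr14:115491848-115492147, reaches into an exon of that gene and holds 23 CpGs.
Gpc5: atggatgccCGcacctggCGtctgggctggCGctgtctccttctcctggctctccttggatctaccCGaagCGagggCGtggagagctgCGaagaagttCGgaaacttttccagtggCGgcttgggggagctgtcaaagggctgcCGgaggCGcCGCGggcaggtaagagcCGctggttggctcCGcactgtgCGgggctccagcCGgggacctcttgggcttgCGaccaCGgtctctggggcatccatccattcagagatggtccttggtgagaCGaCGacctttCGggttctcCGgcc
The intergenic stretch lies at chr6:90938032-90938331, in a peak 128423 bp from the nearest protein-coding start site, that of Nup210. With 49 CpGs it is the most CpG-rich of the stretches printed here.
Intergenic: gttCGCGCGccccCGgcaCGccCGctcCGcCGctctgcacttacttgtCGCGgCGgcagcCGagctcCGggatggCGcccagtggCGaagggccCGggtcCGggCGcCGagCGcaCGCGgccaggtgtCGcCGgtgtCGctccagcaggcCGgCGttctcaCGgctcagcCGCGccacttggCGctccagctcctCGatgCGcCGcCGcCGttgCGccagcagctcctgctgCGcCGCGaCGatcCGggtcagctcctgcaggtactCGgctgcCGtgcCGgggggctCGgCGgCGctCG
For comparison, the last is from a peak that did overlap a PcG protein peak and lay in the middle of the ranking of its own group. It lies in an intron of Grin2b, which encodes a glutamate receptor subunit, at chr6:136122239-136122538, and holds 36 CpGs.
Grin2b: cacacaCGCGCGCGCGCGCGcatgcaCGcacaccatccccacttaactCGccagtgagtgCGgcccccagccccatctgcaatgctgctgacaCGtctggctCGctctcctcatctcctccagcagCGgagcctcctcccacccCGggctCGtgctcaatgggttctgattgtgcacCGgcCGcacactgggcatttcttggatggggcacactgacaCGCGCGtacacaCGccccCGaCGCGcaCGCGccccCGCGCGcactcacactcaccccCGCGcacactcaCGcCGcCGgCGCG

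Peaks without PcG protein peaks were narrow. Their median width was 1200 bp (95% interval of the median 1200 to 1400), with a range of 1000 to 4400 bp. The other H3K27me3 peaks had a median of 2000 bp and reached 26000 bp. The smallest width that the authors' 1 kb window allows was found for 190 of the 579 (32.8%, 29 to 36.8) and for 179 of the 1613 (11.1%, 9.61 to 12.7). At least 2 kb was reached by 68 (11.7%) and by 838 (52%). A wider peak has more room to meet a protein peak, so width is in part fixed by how the group was chosen. Start-site shares, CpG ratios and NSC overlaps are also given for some classes of width.

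**Figure D1:**
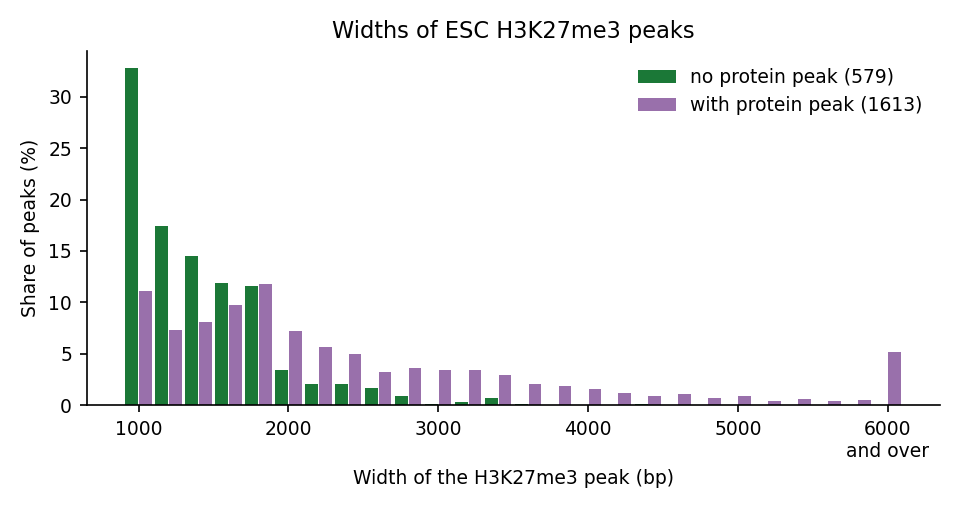
Widths of ESC H3K27me3 peaks (bp, in the steps of 200 bp that the lists use; the last bar holds all peaks of 6000 bp and over) as the share of peaks in each group (%). Green bars are the 579 peaks without a Ring1b, Cbx2 or Ezh2 peak and purple bars the 1613 peaks with one. At the smallest width lie 32.8% of the first and 11.1% of the second, and no green bar lies beyond 4400 bp.

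The widest peaks of the group sat at genes of varied function. The widest, at chr17:56260201-56264600, spanned 4400 bp with the start site of Lrg1, a secreted leucine-rich glycoprotein, and bases of Sema6b, a semaphorin of axon guidance. A peak of 3600 bp lay in Chst13, a sulfotransferase of chondroitin. Peaks of 3400 bp held the start sites of Adcyap1r1, the receptor for the neuropeptide PACAP, of Dusp8, a phosphatase of MAP kinases, and of Kcnq1, a potassium channel gene that is imprinted. Another of 3400 bp lay 1991 bp from the start site of Cdh3, which encodes P-cadherin. Peaks of 3200 bp held the start sites of Arid3c, a DNA-binding protein, and Chrdl2, a secreted antagonist of BMPs. Dgki, a diacylglycerol kinase, had one of 3000 bp, and Nod1, a sensor of bacterial cell walls, held one of 2800 bp at 27206 bp from the nearest start site. The peak in Chst13 lay 74000 bp from the nearest Ring1b peak and the other 9 lay between 135400 bp and 1214600 bp from one.

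The 579 peaks occurred on all 20 chromosomes that held peaks. By chromosome they made up between 20.4% of the H3K27me3 peaks, on chromosome 3, and 31.7%, on chromosome 7. On the X chromosome they were 10 of 36 (27.8%).

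Most of these peaks lay over 100 kb from any PcG protein peak. Distances from places drawn at random in the genome were not measured, so whether these are long or short for the genome was not tested. The median distance to the nearest ESC Ring1b peak was 210800 bp (159400 to 250800), with quartiles of 40800 and 481500 bp. The median distance was 580000 bp to an Ezh2 peak and 980600 bp to a Cbx2 peak, in lists that held 1173 and 1033 peaks against 2335 for Ring1b. For 493 of the 579 (85.1%) the nearest protein peak was a Ring1b peak. No Ring1b, Cbx2 or Ezh2 peak lay within 100 kb of 351 peaks (60.6%). Another H3K27me3 peak was also often far away, since none lay within 100 kb of 386 (66.7%, 62.7 to 70.5), against 887 of the 1613 (55%, 52.5 to 57.4). Within 10 kb, 57 (9.84%) had an H3K27me3 peak that did overlap a protein peak, and 27 (4.66%) had another of the 579.

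**Figure D2:**
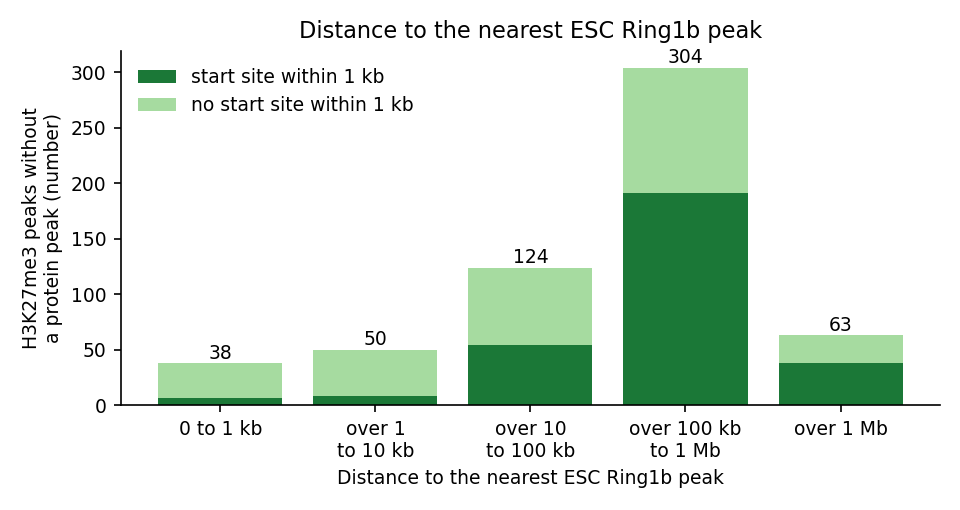
Number of ESC H3K27me3 peaks without a PcG protein peak (vertical axis) by distance to the nearest ESC Ring1b peak (horizontal axis, 5 classes). Dark green marks peaks at most 1 kb from the start of a protein-coding gene and light green the rest. The class of over 100 kb to 1 Mb is the largest, with 304 peaks, of which 191 were near a start site.

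At the boundary of the group, 13 peaks adjoined a protein peak without sharing a base, 4 lay 200 bp away and 8 lay 400 bp away. Those that adjoined one included peaks 7492 bp from the start site of Pax3, 4935 bp from Nkx3-2 and 7238 bp from Nr2e1, which encode transcription factors of the neural crest and muscle, the skeleton and the neural stem cell, and a peak over the start site of Accn4, of the acid-sensing channel family. On the other side, 11 peaks were left out for an overlap of 200 bp, 1 step of the windows, and 7 for 400 bp. These 11 included peaks over the start site of Lpar3, a receptor for lysophosphatidic acid, and 13295 bp from that of Nkx2-1, a factor of lung and forebrain development.

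The 88 peaks (15.2%) within 10 kb of a Ring1b peak are described here beside the 491 farther away. This split uses the Ring1b list, which also defined the group, so the differences below are descriptions only. The nearest gene was in one of the 2 lists of developmental transcription factors for 24 of the 88 (27.3%) and for 17 of the 491 (3.46%). Among the 1613 peaks with a protein peak it was so for 407 (25.2%), a share close to that of the 88. These genes included Neurog1, Neurog2, Neurog3, Olig2 and Olig3, which direct neural fates, Hand2 and Tbx5, which act in the heart and limb, and Pax3, Pax9, Lmx1b and Nkx2-3. Few of the 88 were at a start site themselves, since 15 (17%, 9.87 to 26.6) lay within 1 kb of one, against 283 of 491 (57.6%, 53.1 to 62.1). They were also poor in CpG, with a median ratio of 0.311 against 0.532. The nearest start site lay in an ESC Ring1b peak for 57 of the 88 (64.8%) and for 36 of the 491 (7.33%). A start site under a Ring1b peak cannot lie in a peak of the group. The differences in nearest genes and start sites therefore follow in part from how the group was chosen. By this split a smaller set lay beside Ring1b peaks, mostly away from gene starts, and a larger set lay apart from them and nearer to gene starts.

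By annotation the 579 peaks, counted without regard to width, lay at start sites less often than the other H3K27me3 peaks. Since a start site under a Ring1b peak cannot lie in the group, this difference too follows in part from how the group was chosen. A protein-coding start site lay within 1 kb of 298 (51.5%, 47.3 to 55.6), against 62% of all 2192 H3K27me3 peaks and 1062 of the 1613 peaks with a protein peak (65.8%, 63.5 to 68.2). Of all 1 kb bins of the genome, 2.46% lay as near. Within classes of width the intervals of both groups overlapped, and the differences were not tested. The share of the group was the lower in each class under 3000 bp. At 3000 bp and over it was 77.8%, from 9 peaks, against 75.9%. The shares of the group and of the others were 44.7% (37.5 to 52.1) and 48% (40.5 to 55.6) at 1000 bp. From 2000 to 2800 bp they were 54.2% (40.8 to 67.3) and 67.3% (62.5 to 71.9). A start site was inside 176 of the 579 (30.4%). Another 199 (34.4%) overlapped an exon without a start site, 61 (10.5%) lay in introns and 143 (24.7%) were intergenic. Among the 1613 the shares were 46.4%, 30.4%, 7.56% and 15.6%.

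Peaks of the group that missed a start site lay more often on its transcribed side. The side was not counted for the other H3K27me3 peaks, so whether this is particular to the group was not tested. Downstream of the nearest start site were 266 peaks, of which 104 lay within 1 kb, and upstream were 137, of which 18 lay within 1 kb. The median distance was 2886 bp downstream and 18873 bp upstream. Over 100 kb from any protein-coding start site lay 44 of the 579, and 49 of the 1613 with a protein peak. Besides protein-coding genes, 11 lincRNA genes had their start in one of these peaks, as did 3 miRNA genes, among them Mir137 and Mir219-2.

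The genes that start in these peaks differed in kind from those that start in the other H3K27me3 peaks. The 176 peaks with a start site held those of 178 protein-coding genes, 0.802% of the 22208 gene names annotated, and the 1613 held 784 (3.53%). Each gene has a single start site here and the peaks do not overlap each other, so no gene could start in both groups. That no gene name occurred in both is therefore not a result. Of all 962 genes that start in an H3K27me3 peak, 18.5% started in a peak without a PcG protein peak, and this share is the background for the lists that follow. The lists were drawn from gene name patterns. They were not compared by peak width, so the part of width in the shares of the lists was not tested.

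Developmental transcription factors were scarce. Many PcG targets encode regulators of development, and peaks with PcG proteins were taken out, so this scarcity is in part fixed by how the group was chosen. Of 165 homeobox and paired-box genes, 1 started in one of the 579 peaks and 95 in the others, so 1.04% of those marked were without a protein peak. Of 208 other developmental transcription factors, 2 (Foxi2 and Foxj2) started in the group and 67 outside it, or 2.9%. Of 118 secreted signalling ligands and antagonists, 2 (Chrdl2 and Fgf11) started in the group and 32 outside it, or 5.88%. All of these shares were below the 18.5% over all marked genes, though that of the ligands rests on few marked genes and no interval is given.

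Neurotransmitter receptors and solute carriers had shares above the 18.5% over all marked genes. These shares rest on 10 and 7 genes and no interval is given for them, so how far they stand from 18.5% was not tested. Of the 29 neurotransmitter receptor genes that started in an H3K27me3 peak, 10 (34.5%) did so in the group. Among them were Chrna3, a nicotinic acetylcholine receptor subunit, Drd2, a dopamine receptor, the GABA receptor subunits Gabra2 and Gabrq, the metabotropic glutamate receptor Grm3, and the neuropeptide receptors Npy5r, Sstr2, Sstr4 and Tacr3. Of the 25 solute carrier genes, 7 (28%) started in the group, among them Slc6a11, a GABA transporter, and Slc5a5, the iodide transporter of the thyroid. Of the 31 ion channel genes, 6 (19.4%) did, a share near the background. Among them were Accn4, Kcng2, Kcnmb4, Kcnq1 and P2rx2.

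Apart from the peak at Accn4, which adjoined a Ring1b peak, the widest peaks over the start sites of listed genes stood far from Ring1b. Kcnmb4, a regulatory subunit of the large-conductance potassium channel, had a peak of 2800 bp at 883400 bp from the nearest Ring1b peak. Chrna3 had one of 2400 bp at 258400 bp, and Slc6a11 one of 2000 bp at 835800 bp. Sstr2 had one of 1800 bp at 443800 bp. The peaks at Foxi2 and at Adamts18, an extracellular protease, were both 2200 bp wide and lay 1184000 and 1855200 bp away. That of Celsr1, a cadherin of planar cell polarity, was 1800 bp wide at 359200 bp. The peak at the start site of Grm3 was 1000 bp wide and lay 4344400 bp from a Ring1b peak, among the farthest of all.

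Other lists held few genes. For axon guidance 2 of 16 marked genes, Epha3 and Slit3, were in the group, and for the extracellular matrix and its proteases 2 of 19, Adamts15 and Adamts18. Of 10 marked cadherin genes 1, Celsr1, was in the group, and of 5 marked germline genes 1, Tuba3b. Among imprinted genes 2 of 5 marked genes, Kcnq1 and Magel2, started in the group, and Peg10 and Sgce lay within 1 kb of one of its peaks. None of the 385 Zfp zinc finger genes, 1424 olfactory, vomeronasal and trace amine receptor genes or 76 histone cluster genes started in the group, and 1, 1 and 0 of them started in the other peaks. The list of ribosomal and translation genes gave 1 of 235, Rps6ka4, a kinase gene that its name pattern caught.

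**Figure D3:**
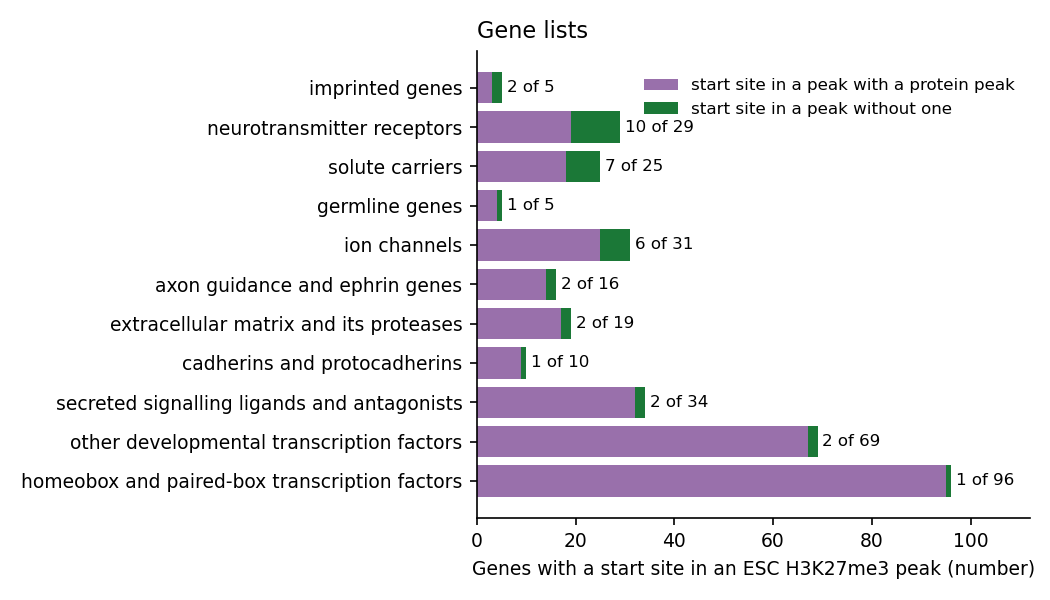
Number of genes of each list with a start site in an ESC H3K27me3 peak (horizontal axis; lists with at least 5 such genes). Green segments count genes whose peak had no PcG protein peak and purple segments those whose peak had one, and the label gives the green count of the total. Homeobox and paired-box genes show 1 of 96 and neurotransmitter receptors 10 of 29.

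In base composition the 579 peaks stood between the genome and the other H3K27me3 peaks. The CpG ratio compares the number of CpGs with that expected from the C and G content. Its median was 0.507 (0.494 to 0.526) in the group, 0.629 (0.622 to 0.638) in the 1613 and 0.159 in 1 kb bins of the genome, of which 1.54% reached 0.507. The 1 kb around protein-coding start sites had a median of 0.55. Median GC content was 56.4%, against 58.2% in the 1613 and 41.5% in the bins. A CpG-dense stretch, here 500 bp with at least 55% GC and a ratio of at least 0.65, was found in 359 peaks (62%, 57.9 to 66), against 80.2% of all 2192 H3K27me3 peaks and 1400 of the 1613 (86.8%, 85 to 88.4). A wider peak has more room for such a stretch. In the 1 kb centred on each peak, which fixes the length measured but not the width of the peak, the median ratios were 0.528 and 0.683. Among peaks of 1000 bp, where both groups have the same width, they were 0.473 and 0.595.

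The difference in CpG ratio was smallest at start sites and largest in introns among the 4 kinds of place. Peaks with a start site had a median ratio of 0.571 in the group and 0.651 among the 1613. Those in exons had 0.531 and 0.64, those in introns 0.278 and 0.497, and intergenic ones 0.36 and 0.545. The highest ratios of the group were 1.09 at Peg10, 0.98 in an intron of Pnpla8, a phospholipase gene, and 0.975 at the start site of Dock8, a guanine nucleotide exchange factor of immune cells.

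**Figure D4:**
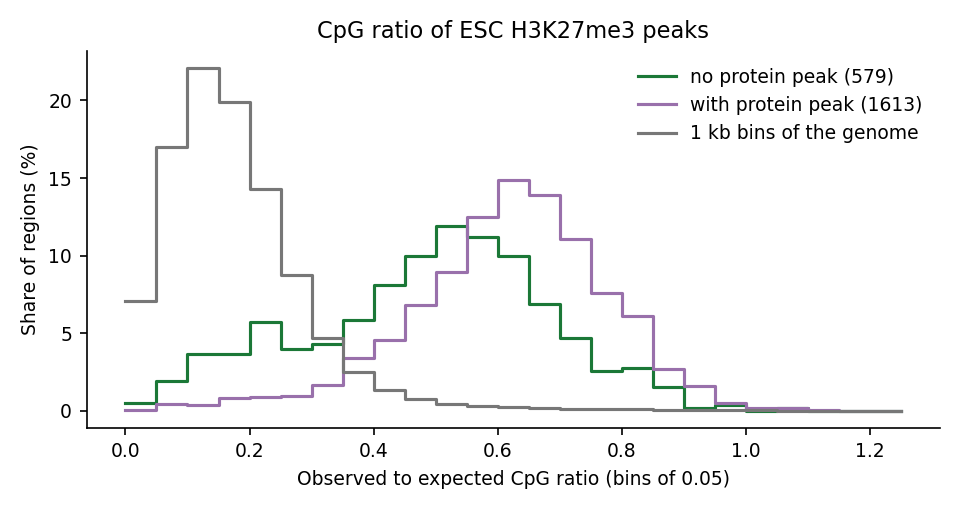
Observed to expected CpG ratio (horizontal axis, bins of 0.05) as the share of regions (vertical axis, %). Green is the 579 ESC H3K27me3 peaks without a PcG protein peak (median 0.507), purple the 1613 with one (median 0.629) and grey all 1 kb bins of the genome (median 0.159). The green line has a shoulder at low ratios that the purple line lacks.

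Few of the peaks had a counterpart in NSCs. An NSC H3K27me3 peak overlapped 29 of the 579 (5.01%, 3.38 to 7.11), against 28.1% of all 2192 ESC H3K27me3 peaks and 588 of the 1613 (36.5%, 34.1 to 38.9). An NSC Ring1b peak overlapped 10 (1.73%, 0.831 to 3.15), against 17.7% of all 2192 and 379 of the 1613 (23.5%, 21.4 to 25.6). Neither list reached 546 of the 579 (94.3%). Both reached 6 (1.04%), against 271 of the 1613 (16.8%).

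The gap was also seen in each of the 4 width classes under 3000 bp. At the smallest width, 1000 bp, NSC H3K27me3 peaks overlapped 6 of 190 peaks of the group (3.16%) and 40 of 179 others (22.3%). From 2000 to 2800 bp the shares were 5.08% and 33.7%. At 3000 bp and over, 1 of 9 peaks of the group (11.1%, 0.281 to 48.2) and 246 of 440 others (55.9%, 51.1 to 60.6) overlapped. The gap had the same direction there, but with 9 peaks in the group that class has little weight. For NSC Ring1b the shares were 1.05% and 15.1% at 1000 bp, 3.39% and 18.1% from 2000 to 2800 bp, and 0% and 38.9% at 3000 bp and over. The peaks within 10 kb of an ESC Ring1b peak overlapped NSC H3K27me3 in 8 of 88 (9.09%, 4.01 to 17.1) and those farther away in 21 of 491 (4.28%, 2.67 to 6.46), intervals that overlap.

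**Figure D5:**
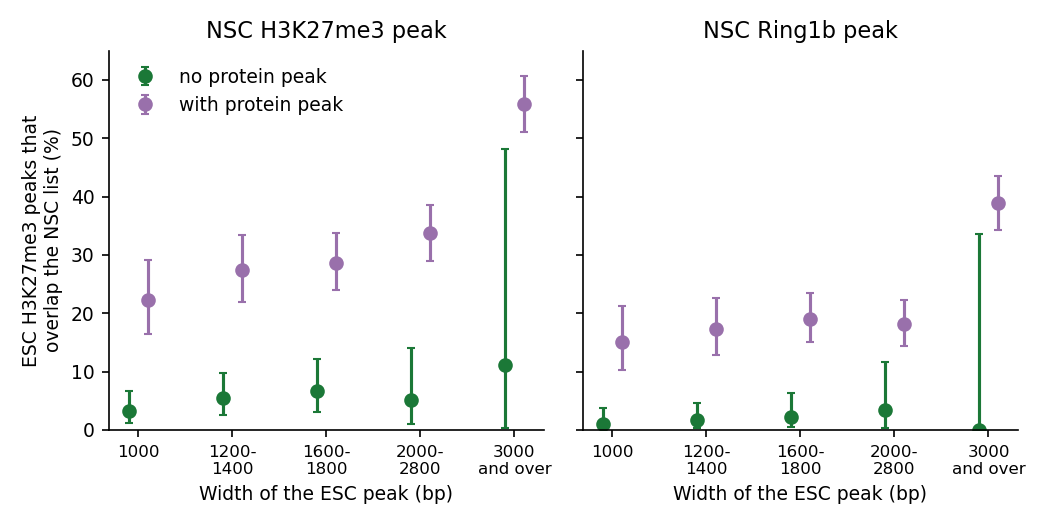
Share of ESC H3K27me3 peaks that overlap an NSC H3K27me3 peak (left) or an NSC Ring1b peak (right), in %, by width of the ESC peak (bp). Green points are peaks without and purple points peaks with an ESC PcG protein peak, and bars are exact 95% intervals over peaks. In every class the green and purple intervals do not overlap, but the widest class holds only 9 green peaks.

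The 6 peaks that overlapped both NSC lists were varied in kind. At chr14:115491201-115493200 the peak over the start site of Gpc5, a heparan sulphate proteoglycan of the cell surface, met NSC peaks of 1600 bp for H3K27me3 and 2000 bp for Ring1b. The intergenic peak at chr6:90936401-90938400, whose sequence is given above, met NSC peaks of 1000 and 1400 bp, and one 15870 bp from Eif3f, a translation factor subunit gene, met peaks of 2400 and 1200 bp. The remaining 3 met far wider NSC Ring1b peaks. The peak 4147 bp from Neurog2, a proneural factor gene, lay 1200 bp from a Ring1b peak in ESCs and overlapped NSC peaks of 14800 bp for H3K27me3 and 14200 bp for Ring1b. The peak near Nkx3-2, which adjoined a Ring1b peak in ESCs, met an NSC Ring1b peak of 13200 bp. The peak 248 bp from the start site of Stxbp5l, a syntaxin-binding protein gene, was 1327400 bp from Ring1b in ESCs and met an NSC Ring1b peak of 20800 bp, while its NSC H3K27me3 overlap was 200 bp.

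Among the 29 peaks with NSC H3K27me3, the NSC peak was wider than the ESC peak for 15, as wide for 4 and narrower for 10, with medians of 1800 and 1400 bp. Sox2, which encodes a factor that ESCs and neural stem cells both use, had a peak of 1200 bp in an exon 274 bp from its start site, 11000 bp from an ESC Ring1b peak, inside an NSC peak of 1800 bp. The start sites of Gabra2, Mgll, an enzyme that breaks down an endocannabinoid, Fmnl1, a formin, and Slc16a12, a transporter of the monocarboxylate family, also lay in peaks marked in both cell types. At Neurog1, Bsx, Lhx6 and Nr2e1, transcription factor genes of the nervous system, the shared peaks lay 31724, 1610, 9128 and 7238 bp from the nearest start site and between 0 and 5200 bp from an ESC Ring1b peak. In NSCs 4 peaks overlapped Ring1b without H3K27me3. They were an intronic peak near Ninl, peaks 174 and 61 bp from the start sites of Wnt16 and Plod2, and an intronic peak of Hoxb3.

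The Cbx2 list made no difference to which peaks belonged to the group, since each peak that Cbx2 would remove also met Ring1b or Ezh2. Of the 32 peaks removed by Ezh2 with no Ring1b peak, 16 (50%, 31.9 to 68.1) overlapped an NSC H3K27me3 peak and 3 an NSC Ring1b peak. The share over all 1613 removed peaks, 36.5%, lies within that interval.

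A small number of the peaks lay in repeated sequence, where tags may align to several places. Under 50% of 32-base words occurred once in the genome in 10 of the 579 (1.73%), against 16 of the 1613 (0.992%), and at least 90% did in 534 (92.2%) against 1559 (96.7%). Those 10 included peaks at Dux, a gene of a tandem array, at Cntfr and near Zfp534, and the peak beside Gm11167, the farthest of all from Ring1b at 5880200 bp, with 16.4% of words found once and another PcG protein peak 1800 bp away. The part of repeated sequence in the calls was not tested. The lists hold no heights and the depth of the libraries is unknown here, so Ring1b, Cbx2 or Ezh2 signal too weak to be called at the 579 peaks was not measured.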

How the data were processed

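Called peaks of 6 ChIP-seq libraries were analysed. The values the authors deposited are peak starts and ends in bp (mm9), without heights, scores or p-values. By the paper, tags were mapped with Bowtie, while the submitters' processing notes name BWA. Tags were then counted in 1 kb windows every 200 bp and tested against input under a negative binomial model with a size parameter chosen by inspection, and enriched windows at most 1 kb apart were merged. How tags with several alignments were treated in these lists is not given in the sources used here. Cbx7, which the paper also names, and the 4 inputs were not analysed here.

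Overlap meant at least 1 shared bp. Distances, annotation and composition came from the NCBIM37 (mm9) sequence and GENCODE vM1 of that build, with Python 3.11.15, numpy 2.4.6 and pandas 2.3.3, and exact intervals from scipy 1.17.1. The overlap and distance steps were tested on simulated data. The genome file marks no repeats, so a planned count of masked bases was replaced by 32-base words found once, taken every 25 bp.

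The group, the gene lists and the rules were chosen with earlier results of these data known. Peaks named were the 10 widest, those that met both NSC lists, the 10 widest with the start site of a listed gene, the 3 nearest to and farthest from Ring1b (12 tied at 0 bp), the 3 highest in CpG ratio and those at the boundary. Peaks tied in width were taken in genome order, so that Nod1 was named of 5 peaks of 2800 bp, and Accn4, Sstr2 and Celsr1 before Slc16a12 at 1800 bp. Others, such as those near transcription factor genes and those with NSC H3K27me3, were named after their values were seen. Annotated UTRs were left out of printed sequences, a rule added later. Some genes of the lists are not reported here by name.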

Additional observations from a re-analysis of the deposited data

How the results depend on the processing

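The 6 main results (the number of peaks, both NSC shares, the share at most 1 kb from a start site, the median distance to Ring1b and the median CpG ratio) were recomputed under 15 settings, which gave 67 values. Of these, 57 stayed within 1.5 times the count or within the 95% interval of the share or median, and 10 did not. Removal by the Ring1b and Ezh2 lists alone gave the same 579 peaks, so its values, counted among the 57, could not differ. Removing peaks with a protein peak within 5 kb gave 56.4% near a start site, a median distance of 271900 bp and a CpG ratio of 0.528. Using the Ring1b list alone gave 7.36% with NSC H3K27me3. Peaks at least 2 kb wide numbered 68, with 57.4% near a start site and a median distance of 289800 bp. Starts of every transcript gave 59.1%, and of every annotated gene 56%. The 1 kb centred on each peak gave a CpG ratio of 0.528. The setting of at least 90% of words found once was chosen after seeing the data.

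No paired analysis was possible because each cell type and target has 1 library. Leaving out a library could not be done for the same reason. The lists carry no depth, so what depth limits cannot be given.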
